A study of Arabidopsis thaliana with 12 samples.

Results

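ARGONAUTE10 (AGO10) is a small RNA-binding protein active in the vascular tissue of the root, and the root tip transcriptome of its mutant ago10-1 was compared with that of the wild type Col-0, both without added cytokinin. The comparison took the 3 ago10-1 mock and 3 Col-0 mock libraries, chosen by their column headings, out of 12 libraries in all. The 6 samples were root tips, given as 1 mm long in the labels and 50 mg per extraction, of Arabidopsis thaliana seedlings grown on plates until 6 days after germination, and the mock seedlings were left without a spray according to the methods. For the cut, the methods give a range of 1 to 3 mm above the tip, so the length sampled is not certain. The mutant is represented by the single allele ago10-1, a T-DNA insertion in Col-0, and the titles number the samples as biological replicates. The other 6 libraries, 3 of ago10-1 and 3 of Col-0 taken 2 h after the cytokinin 6-benzylaminopurine (BAP), served as other samples of the same lines. The BAP seedlings were sprayed according to the methods, so BAP and the spraying itself cannot be told apart. A pair of Col-0 mock columns carried the same heading, so their group was certain but not their replicate number, and they are called Col-0 mock A and Col-0 mock B.

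AGO proteins load small RNAs and use them to find complementary transcripts. AGO1 cleaves or represses such transcripts, whereas AGO10 is known for holding miR165 and miR166, which keeps these miRNAs away from the transcripts of the HD-ZIP III transcription factors. In the root tip the miR165 and miR166 genes are active in the endodermis and HD-ZIP III factors pattern the xylem, procambium and phloem inside it.

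The miRNAs and the stretch of each HD-ZIP III transcript that they pair with are shown because AGO10 acts on this pairing. The mature 3-prime strands, from the RefSeq annotation of TAIR10.1, had only these sequences, the first for miR165a-3p and miR165b and the second for the 7 loci miR166a to miR166g. Capitals mark the seed, bases 2 to 8, which all 9 loci shared.
miR165a-3p: uCGGACCAggcuucauccccc
miR166a-3p: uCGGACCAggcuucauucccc
The best complement of miR166a-3p in each spliced HD-ZIP III transcript was a 21-base site that spanned an exon junction in the coding sequence, written 5-prime to 3-prime with capitals for bases that do not form a Watson-Crick pair with miR166a-3p.
REV: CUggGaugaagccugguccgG
PHB: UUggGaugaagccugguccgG
PHV: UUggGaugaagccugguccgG
CNA: CUggaaugaagccugguccgG
ATHB8: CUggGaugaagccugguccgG
The CNA site (chr1:19412976-19413085, minus strand) left 3 bases without a Watson-Crick pair with miR166a-3p and 4 with miR165a-3p. The sites of REV (chr5:24398787-24398898), PHB (chr2:14642530-14642666), PHV (chr1:10799330-10799445) and ATHB8 (chr4:15866872-15866974) left 4 such bases with miR166a-3p and 3 with miR165a-3p. The last G of each site, and the inner capital G of REV, PHB, PHV and ATHB8, face a U of miR166a-3p. These counts include such G:U wobble pairs.

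The transcript of AGO10 itself (AT5G43810, chromosome 5 from 17610744 to 17616907 of TAIR10.1) fell in the mutant, so the values go with the genotype labels. It stood at 1040, 696 and 914 normalized counts in Col-0 mock 1, A and B and at 187, 175 and 138 in ago10-1 mock 1, 2 and 3. The ago10-1 libraries all stood lower than the Col-0 libraries, with means of 167 ± 25.6 and 883 ± 174 (SD, n = 3 each), so the mutant held 18.9% of the wild-type level. On the log2 scale AGO10 changed by -2.39 (standard error 0.19, adjusted p = 0.0315 from limma). A two-sided exact permutation test gave p = 0.1, the smallest that 3 against 3 samples can give. The table gives values per whole gene, so reads on either side of the T-DNA insertion could not be separated. In the libraries taken after BAP the log2 fold change of AGO10 was -2.38.

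Of the 19206 genes that passed a filter at a mean normalized count of 10 over all 12 libraries, 59 were called higher (0.307% of them) and 25 lower (0.13%) in ago10-1, or 0.437% in both directions. Called means an unadjusted p under 0.01 in limma's moderated test on log2 of the normalized count plus 1, the p threshold that the study used. Evenly spread p-values would put 192 genes under it, more than were found in this fit, which has no replicate term. Of all genes, 3 (0.0156%), AGO10, AT1G75945 and AT2G11405, had an adjusted p under 0.05, and this number was 0 or 1 when any single library was left out. AT1G75945 and AT2G11405 passed the filter only through the ago10-1 libraries. At an unadjusted p under 0.05 there were 400 genes (2.08%). EdgeR gave 2 genes (0.0104%) with an adjusted p under 0.05. DESeq2 on the recovered reads gave 22 genes (0.115%) with an adjusted p under 0.05, and all 22 were among the called genes. The absolute log2 fold changes of the called genes ranged from 0.345 to 6.21 (median 1.03) for those higher and from 0.411 to 3.20 (median 1.46) for those lower. In all 84 called genes the groups did not overlap, which adds no support, as the calls rest on the same values. Of all genes tested, 3.88% had every ago10-1 library above every Col-0 library and 3.08% every one below. The counts moved by more than 1.5 times with single libraries: genes higher numbered 37 without Col-0 mock B, 39 without ago10-1 mock 1 and 33 without ago10-1 mock 2, and genes lower 10 without Col-0 mock A and 13 without ago10-1 mock 2. Of the 84 genes, 25 were called in each of the 6 fits that left out a library.

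**Figure D1:**
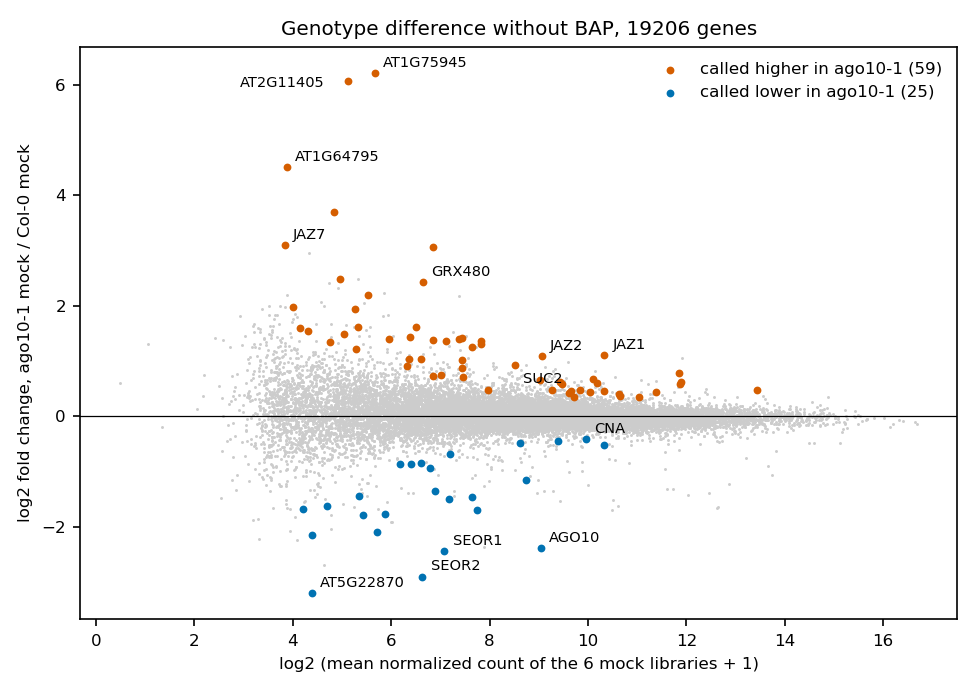
Log2 fold change of ago10-1 mock over Col-0 mock (vertical) against log2 of the mean normalized count plus 1 (horizontal), 1 point per gene. Orange points are the 59 genes called higher and blue points the 25 called lower; most called genes lie within 2 log2 units of 0, and 3 loci that Col-0 hardly expressed stand at the top.

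Reads on genes ranged from 19966023 to 34899796 over the 6 mock libraries, and the depths of both genotypes overlapped. The labelled tissue was checked against marker lists. The stem cell niche genes (PLT1, PLT2, WOX5, SHR and SCR) summed to 3020 to 3600 normalized counts in Col-0 and 3580 to 3870 in ago10-1, all 5 were measured, and 0 were called. The green-tissue genes summed to 243 to 741 and 365 to 671, with 0 of 5 called. The 4 root cap markers had a negative log2 fold change each (median -0.51) and 0 were called. Their sum was 1360 to 1710 in Col-0 and 659 to 1470 in ago10-1, and the lowest library was ago10-1 mock 2, where BRN1 stood at 137 and BRN2 at 128 normalized counts, against 406 to 529 for these genes in the other mock libraries. The 8 endodermis and 7 root hair markers gave 0 calls and summed to overlapping ranges. In tissue samples fewer cells of a type and less RNA per cell cannot be told apart.

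Among the other argonautes no member was called. AGO1, which carries out most miRNA silencing, stood at 6100, 5490 and 6080 normalized counts in Col-0 and at 5480, 4890 and 5710 in ago10-1, and these ranges overlapped (log2 fold change -0.14, standard error 0.10). AGO2, AGO4, AGO6 and AGO7 had log2 fold changes from -0.28 to 0.38 with overlapping groups. AGO3, AGO5, AGO8 and AGO9 were under the filter on low values. None of the 15 genes of small RNA processing and turnover was called, and their median log2 fold change was -0.12 beside 0.005 over all genes tested. DCL4 and DCL2, Dicer enzymes, had the smallest p among them, with log2 fold changes of -0.23 and -0.18. DCL2 overlaps a gene on the same strand.

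Of the 5 HD-ZIP III genes, CNA fell and the other 4 were not called, where 0.13% of all genes tested were called lower. CNA (CORONA, also ATHB-15) stood at 1210, 1160 and 1040 normalized counts in Col-0 and at 903, 801 and 850 in ago10-1. The groups did not overlap, which held for 3.08% of all genes in this direction, at 1130 ± 89.4 and 851 ± 51.1 (SD, n = 3 each), and the mutant mean was 75.1% of the wild-type mean. For CNA this gave -0.41 on the log2 scale (standard error 0.11, adjusted p = 0.999 from limma). Its call was lost without Col-0 mock 1 (log2 fold change -0.36), Col-0 mock A (-0.40), ago10-1 mock 2 (-0.37) or ago10-1 mock 3 (-0.41). After BAP its log2 fold change was -0.26 (standard error 0.19) and not called. By Watson-Crick pairs alone, the CNA site printed above paired more fully with miR166a-3p than with miR165a-3p. Whether this pairing bears on the level of CNA was not tested.

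The other HD-ZIP III transcripts lay within the spread of the libraries. PHV had 539, 406 and 475 normalized counts in Col-0 and 401, 414 and 376 in ago10-1 (log2 fold change -0.24, standard error 0.14). PHB stood at -0.16 on the log2 scale (standard error 0.15), REV 0.10 (0.14) and ATHB8 0.02 (0.12). REV overlaps a gene on the other strand, and its direction turned without ago10-1 mock 1 (-0.011). The ZPR genes, small inhibitors of HD-ZIP III proteins, gave 0 calls among 3 measured (log2 fold changes of ZPR4 and ZPR1 -0.31 and -0.16). Of the 9 precursor genes of miR165 and miR166, only MIR166B passed the filter, at 35.4, 47.8 and 69.3 normalized counts in Col-0 and 60, 56.1 and 50.8 in ago10-1 (log2 fold change 0.18, standard error 0.31). Mature miRNAs were not measured in these libraries.

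**Figure D2:**
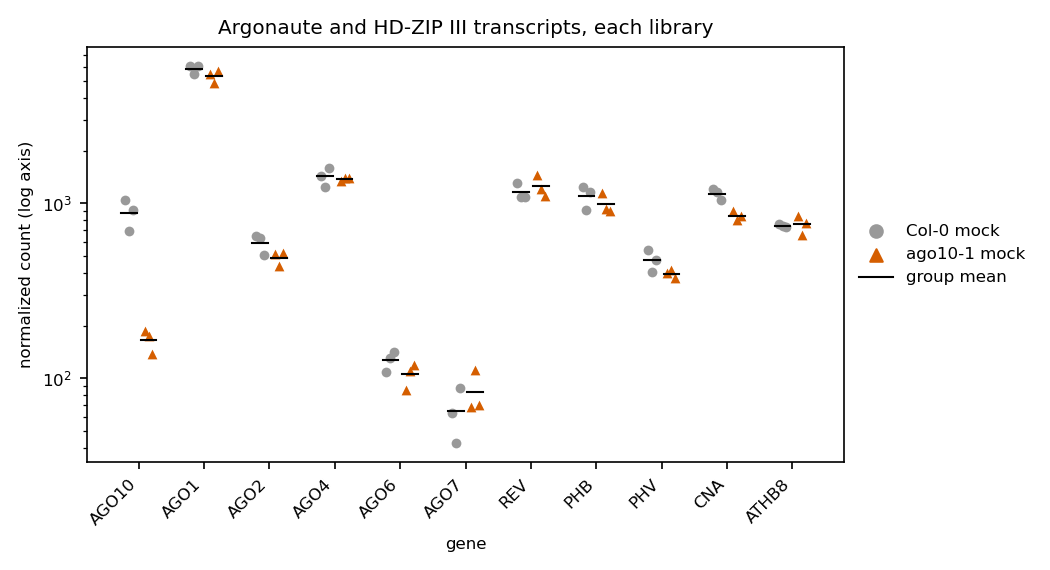
Normalized count (log axis) of the argonaute and HD-ZIP III genes that passed the filter, 1 point per library, grey circles for Col-0 mock, orange triangles for ago10-1 mock and black lines for group means. The groups are apart for AGO10 (138 to 187 against 696 to 1040) and CNA (801 to 903 against 1040 to 1210), and they overlap for the other 9 genes.

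Phloem moves sugars through sieve elements, living conduits that lose their nucleus, and companion cells that load and serve them. Of the 20 sieve element and companion cell genes, 6 fell and 1 rose, where 0.437% of all genes were called. The median log2 fold change of the list was -0.35, beside 0.005 over all genes. The list was drawn up with earlier results of these data known, so its count is not independent evidence.

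The largest falls of the list were those of the neighbours SEOR1 and SEOR2 on chromosome 3 (251868 to 255513 and 247192 to 250472), which encode the filament proteins of sieve elements. SEOR1 stood at 271, 235 and 177 normalized counts in Col-0 and 58.7, 37.9 and 29.3 in ago10-1. SEOR2 stood at 213, 190 and 116 in Col-0 and 34.3, 23.7 and 12.1 in ago10-1. For both genes the groups did not overlap and the ago10-1 mean was 18.5% and 13.5% of the Col-0 mean. SEOR1 fell by 2.45 on the log2 scale (standard error 0.30, adjusted p = 0.216 from limma and 1.95e-09 from DESeq2). SEOR2 fell by 2.91 (standard error 0.41, adjusted p = 0.299 from limma and 4.73e-08 from DESeq2), and both calls held without any single library.

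SEOR1 fell in the libraries taken after BAP as well. It had 498, 231 and 153 normalized counts in Col-0 BAP 1, 2 and 3 and 92.1, 31.3 and 68.4 in ago10-1 BAP 1, 2 and 3. The groups were again apart, with a log2 fold change of -2.14 (standard error 0.56) that was called, and for SEOR2 it was -2.32 (standard error 0.75) and not called.

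ENODL9, an early nodulin-like protein of sieve elements, stood at 297, 192 and 153 normalized counts in Col-0 and 71, 71.1 and 74.1 in ago10-1 (log2 fold change -1.50, standard error 0.26, adjusted p = 0.616 from limma and 0.00081 from DESeq2). It overlaps a gene on the other strand. The transcription factor NAC057 stood at 65, 67.8 and 42.8 against 25.7, 19 and 17.2 (log2 fold change -1.45, standard error 0.33), and its call was lost without Col-0 mock 1 (-1.36) or Col-0 mock A (-1.33). The groups of both genes did not overlap, and the ago10-1 levels of ENODL9 differed by less between libraries than those of Col-0.

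The sieve element sucrose synthase SUS5 stood at 135, 137 and 100 normalized counts in Col-0 and 83.2, 56.1 and 67.2 in ago10-1 (log2 fold change -0.84, standard error 0.24). The callose synthase CALS8 had 763, 774 and 772 against 543, 504 and 664 (log2 fold change -0.44, standard error 0.13). For both genes the groups were apart, but the call of SUS5 was lost without Col-0 mock 1 (-0.78), Col-0 mock A (-0.77), ago10-1 mock 2 (-0.71) or ago10-1 mock 3 (-0.83). That of CALS8 was lost without any library other than ago10-1 mock 3, at log2 fold changes from -0.45 to -0.36. CALS7, the callose synthase of sieve plates, missed the threshold at -0.58 (standard error 0.19), as did NAC020, NAC045 and NEN4 of sieve element maturation, at -0.77, -0.80 and -0.75. APL, a regulator of phloem identity, had -0.16 and NAC086 had -0.12.

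SUC2, the sucrose transporter that loads companion cells, rose. It stood at 278, 233 and 242 normalized counts in Col-0 and 543, 442 and 454 in ago10-1, with every ago10-1 library above every Col-0 library. Its log2 fold change was 0.93 (standard error 0.14, adjusted p = 0.368 from limma and 0.000541 from DESeq2), and the call held without any single library. After BAP it was 0.71 (standard error 0.39) and not called. The sugar exporters SWEET11 and SWEET12, the companion cell proton pump AHA3, the phloem lectin PP2-A1 and FTIP1 had values from 0.54 to 1.12, none of them called.

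**Figure D3:**
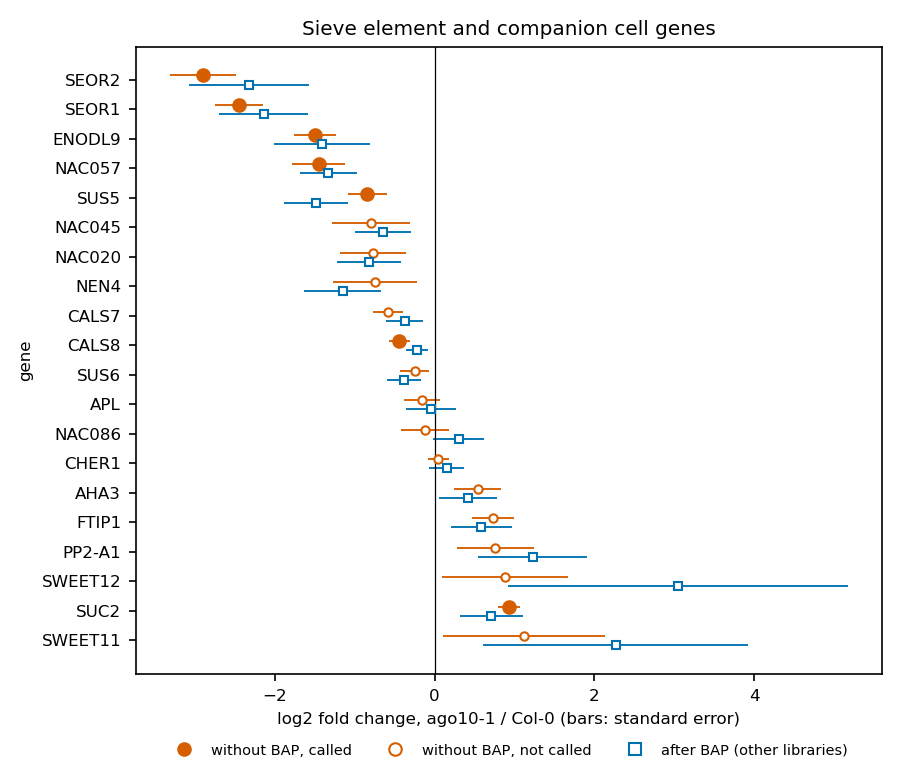
Log2 fold change of ago10-1 over Col-0 with its standard error for the 20 phloem genes, orange circles without BAP (filled where called) and blue squares after BAP, which are other libraries. Values run from -2.91 for SEOR2 to 1.12 for SWEET11 without BAP.

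The short lists of regulators upstream of phloem held a single called gene, where 0.437% of all genes were called. None of the 7 protophloem regulators measured was called (log2 fold changes of SMXL5 and SMXL4 0.49 and -0.52). Of the 7 vascular DOF genes, DOF2.1, which promotes procambial divisions downstream of TMO5 and LHW, was called. It stood at 656, 691 and 697 normalized counts in Col-0 and 926, 949 and 936 in ago10-1. The groups were narrow and apart (log2 fold change 0.46, standard error 0.09, adjusted p = 0.999 from limma), and the call held without any single library. The mobile DOF factors PEAR1 and PEAR2 had -0.37 and -0.09.

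Of the 9 genes of the TMO5 and LHW module, which drives cytokinin synthesis and divisions around the xylem, SAMDC4 fell and no other was called, where 0.13% of all genes tested were called lower. SAMDC4, an enzyme of polyamine synthesis, was low, at 35.4, 20.9 and 40.5 normalized counts in Col-0 and 2.45, 6.32 and 13.8 in ago10-1. The groups did not overlap (log2 fold change -2.16, standard error 0.62), and the call was lost without any library other than ago10-1 mock 3, at log2 fold changes from -2.43 to -1.63. The other 8 members had positive values, as did 51.4% of all genes, led by TMO5 at 0.52 (standard error 0.29), and the list's median was 0.18.

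None of the 12 xylem genes was called, although 10 had positive values, as 51.4% of all genes did, and their median was 0.28. VND7, the switch to protoxylem fate, stood at 62.6, 70.4 and 52.3 normalized counts in Col-0 and 147, 82.1 and 87 in ago10-1. Its groups did not overlap, and the log2 fold change was 0.72 (standard error 0.28). The xylem protease XCP1 stood at 2370, 1770 and 1480 against 4180, 2000 and 2520, so its groups overlapped (log2 fold change 0.59, standard error 0.28). XCP1 overlaps a gene on the other strand. The summed level of the list ran from 6490 to 11500 in Col-0 and from 8090 to 17100 in ago10-1.

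Jasmonate is the wound hormone of plants. It is made from plastid lipids by LOX, AOS, AOC and OPR3 enzymes, and its conjugate brings JAZ repressors to the receptor COI1 for breakdown, which frees MYC factors. JAZ genes are themselves targets of MYC factors. Of the 10 JAZ genes measured, 5 rose and 0 fell, where 0.307% of all genes were called higher, and the list's median log2 fold change was 1.098 beside 0.005 over all genes. JAZ7, among the 5, passed the filter on low values only through its ago10-1 mock libraries. These lists too were drawn up with earlier results known.

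JAZ2 (AT1G74950, called TIFY10B by RefSeq) stood at 289, 359 and 373 normalized counts in Col-0 and 684, 643 and 849 in ago10-1. JAZ1 stood at 607, 1110 and 747 in Col-0 and 1460, 1490 and 2330 in ago10-1. JAZ9 stood at 68.5, 139 and 72.3 in Col-0 and 204, 221 and 284 in ago10-1. The ago10-1 means were 213%, 214% and 253% of the Col-0 means in that order, with no overlap between the groups.

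The log2 fold change was 1.09 for JAZ2 (standard error 0.16, adjusted p = 0.299 from limma and 1.67e-05 from DESeq2), 1.11 for JAZ1 (standard error 0.26) and 1.39 for JAZ9 (standard error 0.30). These 3 calls held without any single library. JAZ6 rose by 1.38 on the log2 scale, from 82.7, 85.2 and 31 to 193, 158 and 131 normalized counts, and its call was lost without ago10-1 mock 1 (1.24), 2 (1.38) or 3 (1.52). JAZ7 was called from few reads (log2 fold change 3.09, standard error 0.88), at 0, 5.22 and 1.47 against 46.5, 12.6 and 13.8 normalized counts. Its means were 2.23 in Col-0 mock, 24.3 in ago10-1 mock, 7.86 in Col-0 BAP and 7.14 in ago10-1 BAP. JAZ7 thus passed the filter at 10 only through ago10-1 mock, the group where it was high. Its call was lost without any library other than Col-0 mock A, at log2 fold changes from 2.44 to 3.41.

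JAZ10 missed the threshold (log2 fold change 1.52, standard error 0.48), although its groups did not overlap, at 40.2, 78.3 and 111 normalized counts in Col-0 and 127, 175 and 380 in ago10-1. JAZ10 and JAZ12 overlap genes on the other strand. JAZ3, JAZ4, JAZ11 and JAZ12 had values from -0.30 to 0.11 with overlapping groups. JAZ5 and JAZ8 were under the filter on low values.

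In the synthesis and signalling lists single members were called, where 0.307% of all genes tested were called higher. AOS, allene oxide synthase, stood at 338, 423 and 445 normalized counts in Col-0 and 585, 584 and 731 in ago10-1, with no overlap. It was the only gene called among 10 of jasmonate synthesis (log2 fold change 0.66, standard error 0.16, adjusted p = 0.999 from limma), and its call was lost without Col-0 mock 1 (0.54) or ago10-1 mock 3 (0.55). LOX4 had 1.03 (standard error 0.32) and did not overlap between groups, which held for 3.88% of all genes in this direction. OPR3, AOC3, AOC4, OPCL1, ACX1 and JAR1 had values from 0.03 to 0.19, and LOX6 had -0.21.

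JAM1 (AT2G46510, AIB in RefSeq), a bHLH factor that counteracts MYC2, was the only gene called among 7 measured receptor and bHLH genes. Over all genes tested, 0.307% were called higher. It stood at 73.3, 78.3 and 76.7 normalized counts in Col-0 and 186, 182 and 229 in ago10-1. The groups were far apart (log2 fold change 1.37, standard error 0.18, adjusted p = 0.294 from limma and 2.86e-05 from DESeq2), and the call held without any single library. COI1 had -0.01, MYC3 0.17, MYC4 0.03, JAM2 -0.15 and JAM3 0.06. MYC2 was listed at 0 in every library, and nothing is drawn from it. None of the 7 measured genes of jasmonate breakdown was called, all with positive values (median 0.27, ST2A 0.41 with a standard error of 0.20).

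Of the 20 measured transcription factors of the early wound response, 6 rose and 0 fell, where 0.307% of all genes tested were called higher, and 18 had positive values (median 0.51), as did 51.4% of all genes. WRKY40, a defence regulator, stood at 78, 148 and 65.6 normalized counts in Col-0 and 306, 186 and 256 in ago10-1. The groups did not overlap (log2 fold change 1.41, standard error 0.33). Its call was lost without ago10-1 mock 1 (1.25) or ago10-1 mock 3 (1.38). It overlaps a gene on the other strand and holds 465 bases that match elsewhere in the genome, so its reads are uncertain. ZAT10 rose by 1.39 on the log2 scale, from 30.7, 45.2 and 23.6 to 127, 69.5 and 70.7 normalized counts, with its call lost without Col-0 mock 1 (1.36), Col-0 mock B (1.18) or ago10-1 mock 1 (1.11).

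ERF13 rose by 1.95 on the log2 scale, from 9.45, 29.6 and 10.3 to 61.2, 49 and 65.5 normalized counts, with its call lost without Col-0 mock B (1.73), ago10-1 mock 1 (1.91) or ago10-1 mock 3 (1.86). ATAF1, ATAF2 and RAV2 rose by 0.35, 0.37 and 0.41. Both ATAF1 and ATAF2 overlap genes on the other strand. The call of ATAF1 was lost without any library other than ago10-1 mock 3 (0.30 to 0.40), and those of ATAF2 (0.33 to 0.36) and RAV2 (0.36 to 0.40) without Col-0 mock 1, Col-0 mock B, ago10-1 mock 1 or ago10-1 mock 3. WRKY33, WRKY18, AZF2 and RAV1 had values from 0.61 to 0.87 and were not called. The touch-responsive genes, given beside these lists because handling also raises them, had positive values in 6 of 6 genes, 0 called, a median of 0.24 and summed levels of 749 to 1070 in Col-0 and 1070 to 1460 in ago10-1, and their part in the result was not tested. The 9 core hypoxia genes gave 0 calls and a median of -0.44.

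**Figure D4:**
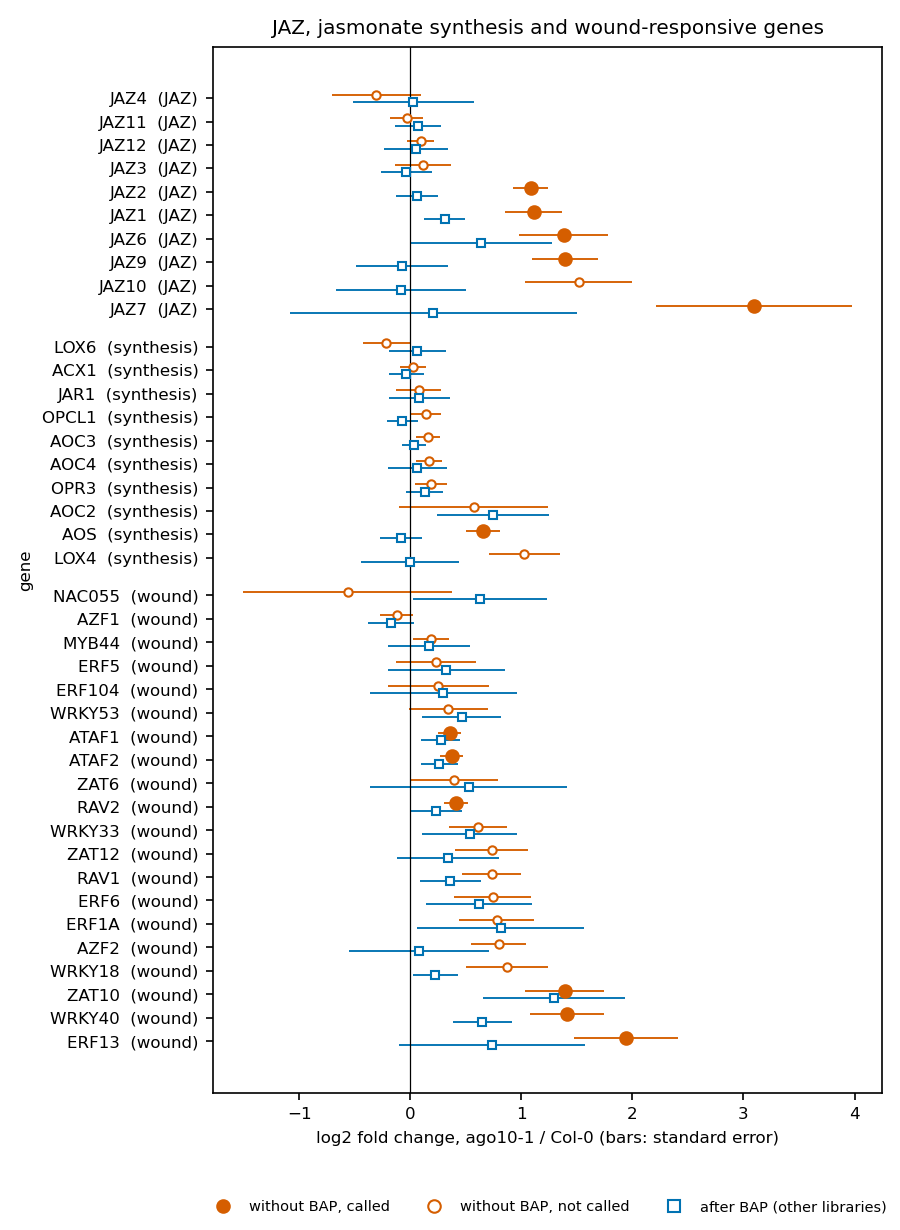
Log2 fold change of ago10-1 over Col-0 with its standard error for JAZ, jasmonate synthesis and wound response genes, orange circles without BAP (filled where called) and blue squares after BAP. JAZ1, JAZ2, JAZ6, JAZ7 and JAZ9 lie at 1.09 to 3.09 without BAP and at -0.08 to 0.64 after BAP. They are singled out as called without BAP, which tends to enlarge their values there.

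No JAZ gene was called in the libraries taken after BAP. JAZ2 stood at 497, 419 and 322 normalized counts in Col-0 BAP 1, 2 and 3 and at 410, 433 and 429 in ago10-1 BAP 1, 2 and 3. These groups overlapped, with a log2 fold change of 0.06 (standard error 0.19). JAZ9 stood at 212, 160 and 166 against 92.1, 183 and 283, and JAM1 at 82.1, 81 and 76.5 against 53.9, 111 and 102, so that these also overlapped.

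The difference between both genotype effects was tested by the interaction of genotype and BAP over all 12 libraries. Only the BAP seedlings were sprayed, so this interaction cannot tell BAP from spraying. The interaction was -1.03 on the log2 scale for JAZ2 (standard error 0.25) and -1.28 for JAM1 (standard error 0.36). Both had an adjusted p of 1 from limma, and they were among 4 genes with an unadjusted p under 0.01 in this test (0.0208% of the genes), with IDD4 (0.58) and LpxB (-0.92). No gene had an adjusted p under 0.05 for the interaction in limma, edgeR or DESeq2, and in limma 89 (0.463%) were under 0.05 before adjustment. For JAZ9, JAZ1 and AOS the interaction was -1.47, -0.80 and -0.74, not past the threshold. The median log2 fold change of the 10 JAZ genes after BAP was 0.06, beside 0.014 over all genes.

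The promoters of called genes were searched for CACGTG, the G-box that MYC factors bind, and for TTGACC or TTGACT, the W-box of WRKY factors, on both strands in the 250 bases before the RefSeq gene start. CACGTG occurred in 9 of 54 promoters of genes called higher (16.7%), in 1 of 25 of those called lower (4%) and in 1368 of 18807 of all tested genes with a window (7.27%). TTGACC or TTGACT occurred in 20.4%, 12% and 28.4%. These are descriptions without a test. The 250 bases of JAZ2 (chr1:28150447-28150696, minus strand), JAZ7 (chr2:14572780-14573029, plus strand), AOS (chr5:17099596-17099845, minus strand) and SEOR1 (chr3:251618-251867, plus strand) of TAIR10.1 are shown because they held CACGTG in the jasmonate genes called higher and in the only gene called lower with it; capitals mark either motif.
JAZ2: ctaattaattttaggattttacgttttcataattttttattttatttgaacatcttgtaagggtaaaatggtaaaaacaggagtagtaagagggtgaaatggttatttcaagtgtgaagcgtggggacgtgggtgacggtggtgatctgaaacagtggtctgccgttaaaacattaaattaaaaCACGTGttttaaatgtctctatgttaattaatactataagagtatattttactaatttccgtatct
JAZ7: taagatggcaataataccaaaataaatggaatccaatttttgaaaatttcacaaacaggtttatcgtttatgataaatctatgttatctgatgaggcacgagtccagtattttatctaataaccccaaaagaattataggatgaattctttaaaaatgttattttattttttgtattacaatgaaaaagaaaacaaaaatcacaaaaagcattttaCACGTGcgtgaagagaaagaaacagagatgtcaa
AOS: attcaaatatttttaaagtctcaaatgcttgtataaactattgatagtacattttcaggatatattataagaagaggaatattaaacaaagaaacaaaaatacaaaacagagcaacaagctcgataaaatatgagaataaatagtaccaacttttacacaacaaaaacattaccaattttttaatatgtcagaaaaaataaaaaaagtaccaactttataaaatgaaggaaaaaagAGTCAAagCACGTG
SEOR1: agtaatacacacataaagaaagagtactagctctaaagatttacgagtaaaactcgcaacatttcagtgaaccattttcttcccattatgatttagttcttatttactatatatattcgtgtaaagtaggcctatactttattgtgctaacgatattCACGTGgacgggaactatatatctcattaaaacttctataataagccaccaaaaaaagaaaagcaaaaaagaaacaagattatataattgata
CACGTG began 66 bases before the start of JAZ2, 34 before JAZ7, 6 before AOS and 93 before SEOR1. JAZ1, JAZ6, JAZ9 and JAM1 had no CACGTG in this window.

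A few loci were nearly silent in Col-0 and expressed in ago10-1. AT1G75945 (chromosome 1 from 28515245 to 28515916), annotated as an uncharacterized protein, stood at 0, 0 and 1.47 normalized counts in Col-0 and 99.1, 97.2 and 102 in ago10-1. It had 2 reads in the Col-0 and 322 in the ago10-1 libraries, a ratio of 166 after scaling for depth (95% exact interval 45.7 to 1380, counting error only). AT2G11405 (chromosome 2 from 4543175 to 4543522), also uncharacterized, stood at 0 in all 3 Col-0 libraries and at 80.8, 46.6 and 76.7 in ago10-1, which is at least 73.7-fold higher with a floor of 3 reads over the Col-0 group.

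The adjusted p of both loci was 0.0315 from limma, and from edgeR it was 0.0355 for AT1G75945 and 0.204 for AT2G11405. After BAP both had 0 reads in the Col-0 libraries, with 352 reads of AT1G75945 and 187 of AT2G11405 in the ago10-1 libraries. AT1G64795, an uncharacterized protein named after its values were seen, had 1 read in Col-0 and 88 in ago10-1 (ratio 90.9, 95% exact interval 15.9 to 3630), and 0 and 66 after BAP. AT1G75945, AT2G11405 and AT1G64795 passed the filter on low values only through the ago10-1 libraries, where they were high. The non-coding RNA AT4G04223 stood at 28.4, 13.9 and 17.7 against 229, 61.6 and 334 normalized counts (log2 fold change 3.07, standard error 0.60), but a copy of its full length elsewhere in the genome makes its reads uncertain.

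Other genes with large falls included members of a pair of small families. AT1G08160, a late embryogenesis abundant hydroxyproline-rich glycoprotein, stood at 418, 332 and 232 normalized counts in Col-0 and 108, 105 and 81 in ago10-1. The groups did not overlap (log2 fold change -1.70, standard error 0.25, adjusted p = 0.299 from limma and adjusted p = 2.01e-06 from DESeq2). AT5G22870 of the same family, named after its values were seen, had -3.20 (standard error 0.59), at 52, 40 and 18.4 normalized counts in Col-0 and 2.45, 4.74 and 1.72 in ago10-1. Its ago10-1 mock values were all under the filter at 10. It passed that filter through other libraries, such as those of Col-0, where it was high.

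AT1G29520, an AWPM-19-like membrane protein, stood at 419, 263 and 206 normalized counts in Col-0 and 110, 110 and 88.8 in ago10-1 (log2 fold change -1.46, standard error 0.27), and AT5G46530 of the same family at 118, 101 and 50.1 against 14.7, 25.3 and 36.2 (-1.78, standard error 0.44). AT1G29520 overlaps a gene on the other strand, and the call of AT5G46530 was lost without Col-0 mock 1 (-1.54), Col-0 mock A (-1.65), ago10-1 mock 1 (-1.45) or ago10-1 mock 2 (-1.82). All 4 genes were lower in ago10-1 after BAP as well, at -1.75, -2.69, -1.51 and -1.73 in the order named. The carboxypeptidase scpl25 (-1.36), the ferric reductase FRO5 (-1.16) and the lipid transport family gene AT4G23680 (-2.10) were also among the 10 largest falls. The call of scpl25 was lost without any Col-0 library (-1.41 to -1.30), that of FRO5 without Col-0 mock A (-0.75) or any ago10-1 library (-1.33 to -1.04), and that of AT4G23680 without Col-0 mock 1, Col-0 mock A, ago10-1 mock 2 or ago10-1 mock 3 (-2.07 to -1.78).

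Among the largest increases, GRX480, a glutaredoxin that joins salicylate and jasmonate responses, stood at 18.9, 45.2 and 31 normalized counts in Col-0 and 179, 131 and 191 in ago10-1. The groups were far apart (log2 fold change 2.43, standard error 0.34, adjusted p = 0.299 from limma and 4.2e-07 from DESeq2), and after BAP it was 1.07 (standard error 0.39). PROPEP1, the precursor of a danger peptide, rose by 1.62 on the log2 scale, from 62.6, 38.3 and 29.5 to 196, 96.4 and 114, with its call lost without Col-0 mock A (1.56). AR781 rose by 1.36 (standard error 0.27) and the transcription factor NAC096 by 1.42 (standard error 0.36). The call of NAC096 was lost without ago10-1 mock 2 (1.41) or ago10-1 mock 3 (1.39).

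Lists of cytokinin, auxin, division and clock genes gave a single call, where 0.437% of all genes were called. It was IAA4, an auxin-induced repressor, at 740, 769 and 714 normalized counts in Col-0 and 932, 934 and 957 in ago10-1 (log2 fold change 0.35, standard error 0.09). Its groups did not overlap, but the call was lost in all 6 fits without a library, at log2 fold changes from 0.32 to 0.37. The 10 type-A response regulators, which cytokinin induces, had a median of 0.095, and ARR5 stood at 470, 1010 and 847 against 729, 889 and 897 normalized counts. The 14 genes of dividing cells had a median of 0.004, with BORR, a subunit of the chromosomal passenger complex, at 0.63 (standard error 0.20). The 10 clock genes had a median of 0.08, and the 4 cytokinin oxidases measured 0.03.

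Called genes were spread over the 5 chromosomes, from 0.136% of the tested genes of chromosome 4 to 0.595% of those of chromosome 1. Within 1 Mb of AGO10, 7 of 343 tested genes were called (2.04%), AGO10 included, against 16 of 4128 on the rest of chromosome 5 (0.388%); no test was made. The other 6 were IAA4 at a distance of 59029 bases, AT5G43040 at 344967, AT5G42680 at 495173, AOS at 511149, AT5G44920 at 521868 and the salicylate receptor gene NPR3 at 611861. AT5G43040 was lower (log2 fold change -0.48, standard error 0.13), and the others were higher, by 0.35 to 1.60. AT5G44920 overlaps genes on the other strand. All 6 calls were lost without at least 1 library: AOS as given above, NPR3 without any but Col-0 mock 1 (0.43 to 0.71), AT5G42680 without any but Col-0 mock B (1.36 to 1.73), AT5G43040 without any but ago10-1 mock 1 (-0.51 to -0.40), IAA4 without any, and AT5G44920 without any (0.70 to 1.02).

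The genotype difference was then set beside that in the BAP libraries, which share no library with the mock comparison. Of the 25 genes called lower without BAP, 23 were also lower after BAP and 15 had p under 0.05 there in the same direction. Of the 59 called higher, 55 were higher and 14 had p under 0.05. Over all genes, 61.2% had the same sign in both. The median log2 fold change of the genes called lower was -1.46 without and -1.34 after BAP, and that of the genes called higher was 1.03 and 0.42. These genes were chosen by their mock values, which tends to make their mock medians larger than those in other libraries. The medians therefore do not measure an effect of BAP on the genotype difference.

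After BAP, limma called 10 genes higher (0.0521%) and 15 lower (0.0781%), and 0 had an adjusted p under 0.05 in limma or edgeR, while DESeq2 gave 5 (0.026%) and limma 111 (0.578%) before adjustment at 0.05. Both comparisons shared 9 genes called lower, which is 36% of the list without BAP and 60% of the list after BAP: AGO10, SEOR1, SUS5, NAC057, AT1G08160, AT1G29520, AT5G22870, AT5G48060 and PLC8. They shared 4 genes called higher (6.78% and 40%): AT1G75945, AT2G11405, AT1G64795 and NAC096. Of these, AT1G75945, AT2G11405 and AT1G64795 passed the filter on low values only through the ago10-1 libraries, where they were high. Their shared calls are therefore no independent support. Among the shared lower genes, AT5G22870 had ago10-1 mock values under that filter.

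**Figure D5:**
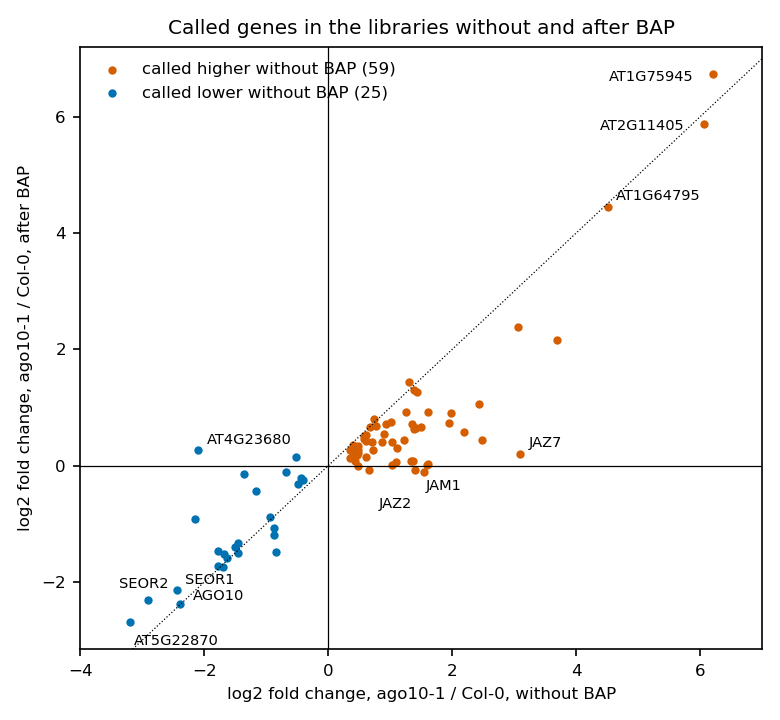
Log2 fold change of ago10-1 over Col-0 after BAP (vertical) against that without BAP (horizontal) for the 84 genes called without BAP; the dotted line marks equal values. Genes called lower (blue, medians -1.46 and -1.34) lie near the line, while most genes called higher (orange, medians 1.03 and 0.42) lie under it, with JAZ2 and JAM1 near 0 after BAP. All were chosen by their values without BAP, which tends to enlarge those values.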

How the data were processed

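The 12 libraries were read by commercial RNA sequencing of root tip RNA. Per the labels and the paper's methods, the authors used STAR for alignment, featureCounts with a TAIR10 annotation for counting and DESeq2 for normalization; strandedness is not given in the sources used here. The deposited signal is 1 table of normalized counts covering 32833 genes, each value being reads over a size factor of its library. A factor per library made 100% of the values whole at a tolerance of 1e-06, and these whole reads served depth, edgeR and DESeq2. Gene IDs were matched to RefSeq TAIR10.1 locus tags (32548 of 32833). Between mock replicates the chi-square per gene was 23.1 to 47.9, above sampling noise.

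Each comparison was fitted with limma 3.58.1 (limma-trend, two-sided) in R 4.3.3 with its own 6 libraries, after log2 transformation with a pseudocount of 1, over genes whose mean reached 10 in the 12 libraries. Fold changes are on this scale, which understates the change of low genes. Genes with an unadjusted p under 0.01 are called, and Benjamini-Hochberg adjusted p-values stand beside them. On simulated data of this comparison (19206 genes), 47.8% of 1.5-fold, 83.6% of 2-fold and 100% of 4-fold changes were called, and 0.905% of unchanged genes. Alternatives were edgeR 4.0.16 and DESeq2 1.42.0, pseudocounts of 0.5 and 5, filters at 50 and none, upper-quartile scaling, all 12 libraries in the fit, a replicate term and leaving out each library. Shared sequence was sought with blastn (at least 95% identity over 100 bases).

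The members and the 27 gene lists were chosen with earlier results of these data known, and lists are described without a test. Genes named are AGO10, all argonaute, HD-ZIP III and JAZ genes, genes with an adjusted p under 0.05, the 10 largest changes in each direction among called genes with a mean of at least 50 over the 6 mock libraries and groups that do not overlap, the called members of each list (or the 2 of smallest p), and called genes within 1 Mb of AGO10. Other genes are members given in ranges, shared calls, or named after their values were seen.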

Additional observations from a re-analysis of the deposited data

Results flagged for a closer look

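The genotype differences of JAZ2 (AT1G74950) and JAM1 (AT2G46510) were larger in the libraries without BAP than in those after BAP. No gene had an adjusted p under 0.05 for the interaction of genotype and BAP in limma. Both genes had been called on mock values that the interaction also uses. The interaction was -1.03 on the log2 scale for JAZ2 (standard error 0.25, limma over 12 libraries) and -1.28 for JAM1 (standard error 0.36), both with an adjusted p of 1. JAZ2 was higher in all 3 ago10-1 libraries than in Col-0 without BAP, by 1.09, and had a difference of 0.06 after BAP. JAM1 was likewise higher in 3 of 3 by 1.37 and had 0.085 after BAP.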

How the results depend on the processing

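AGO10 stayed called in the same direction under each alternative (log2 fold change -2.55 to -2.26 without single libraries), and no called gene changed sign under any setting. Of the 59 genes higher and 25 lower, the numbers became 120 and 61 with no filter on low values, 89 higher with DESeq2, and 16 lower with a filter at a mean of 50; they ranged from 33 to 84 and from 10 to 34 when a library, or replicate 1 of both groups (an alternative added after the data were seen), was left out. Genes with an adjusted p under 0.05 numbered 1 with a pseudocount of 0.5, 1 with a filter at 50, 0 with no filter (where 181 genes were called), 22 with DESeq2 and 0 to 1 without single libraries. The calls after BAP (25) became 15 with a filter at 50, 122 with no filter, 51 with DESeq2 and 6 to 138 without single libraries, the highest without Col-0 BAP 1 and the lowest without ago10-1 BAP 3. The interaction (4) became 51 with no filter, 13 with DESeq2 and 4 to 39 without single libraries. Of the 84 called genes, 76 were shared with edgeR, 83 with DESeq2, 50 with no filter, 51 with a fit of all 12 libraries and 39 to 48 with single libraries left out. The cause of these changes was not tested.

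With a replicate block the genes higher numbered 138 (replicate 1 against the others), 233 or 133 (same-headed columns in file or reverse order), and the genes lower 76 or 49 in the latter orders; genes with an adjusted p under 0.05 numbered 6 and 1 there. After BAP the block gave 85 calls and for the interaction 12. The pairing rests only on numbers: deviations from the group means correlated across genes at 0.553 for replicate 1 of both groups, at -0.00827 and -0.00537 for Col-0 mock A with ago10-1 mock 2 and 3, and at 0.216 and 0.484 for Col-0 mock B with them, and the numbers of Col-0 mock A and B are unknown. Not every pair correlated in either order, so the block stands only here; in total it gave 174, 309 or 182 calls, the 309 above the 192 of evenly spread p-values.

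Among 88 single genes, 16 of the leave-one-out values in 11 genes turned direction, none of them a called gene: AGO4 (-0.13 to 0.0564), REV (-0.0105 to 0.19), ATHB8 (-0.0541 to 0.12), JAZ3 (-0.0892 to 0.34), JAZ11 (-0.0969 to 0.10), JAZ12 (-0.0049 to 0.15), ZPR1 (-0.27 to 0.0126), MIR166B (-0.11 to 0.42), CASP5 (-0.11 to 0.94), CASP2 (-0.18 to 0.39), LHCB1.3 (-0.70 to 0.17). Another 118 leave-one-out values lost their call. On simulated data with this depth and replication, 47.8% of 1.5-fold changes were called in genes with a mean count of at least 50. Smaller changes, and changes in lower genes, could be missed.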
